A study of Mus musculus with 17 samples.

Results

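miR-205 is a microRNA of surface epithelia, and its level was followed in the mouse embryonic stem cell (ESC) lines D3 and B8 as they differentiated. Of the 1033 mature miRNA rows in the small RNA sequencing table, 2 carry the name, mmu-miR-205-5p and mmu-miR-205-3p, the products of the 2 strands of 1 hairpin. Both were kept by the filter on low values (521 miRNAs in all). The groups were D3 at day 0 (n = 3), day 7 (n = 2, labelled replicates 2 and 3) and day 21 (n = 3), and B8 at day 7 (n = 3) and at day 0 (n = 3). At day 0 the cells were still ESCs, kept in LIF on no feeder layer. By day 7 they were embryoid bodies from hanging drops and by day 21 embryoid body outgrowths, both in medium without LIF and with retinoic acid, insulin, transferrin, selenium and N2 supplement. The labels give no genotype, strain, sex or transgene for either line, and each line is a single line, so differences between D3 and B8 are differences between these 2 lines. B8 at day 21 (3 labelled samples) is not analysed here. Nothing in the labels says that replicates are separate cultures, so the p-values rest on a spread among samples that may be technical.

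In the mouse, miR-205 is abundant in the epidermis, hair follicles and other stratified and glandular epithelia, and the stratified epithelial factor p63 is known to act on its gene. Together with the miR-200 family it represses Zeb1 and Zeb2, the repressors of E-cadherin that act in the epithelial to mesenchymal transition. The miR-200 family itself is made from a pair of gene clusters. miR-203 represses p63 in the differentiating layers of the epidermis, and miR-31 is expressed in hair follicles and in keratinocytes of wounded skin. Retinoic acid with withdrawal of LIF is a common way to take mouse ESCs out of pluripotency.

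The mature sequences are shown because the seed decides which target sites a miRNA can pair with. They are printed 5′ to 3′ from RefSeq (GRCm38.p6), with the seed, bases 2 to 8, in capitals:
miR-205-5p: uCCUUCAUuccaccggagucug
miR-205-3p: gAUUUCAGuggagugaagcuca
miR-200b-3p: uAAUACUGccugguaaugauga
miR-200c-3p: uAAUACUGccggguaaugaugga
miR-429-3p: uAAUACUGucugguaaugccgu
miR-200a-3p: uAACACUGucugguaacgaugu
miR-141-3p: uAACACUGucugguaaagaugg
miR-203-3p: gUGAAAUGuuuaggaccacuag

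Among the 1679 mature mouse names of the RefSeq table, miR-205-5p was the only 1 with its seed, and likewise miR-205-3p. The miR-200 family falls into 2 seed groups, 1 of 3 names (miR-200b-3p, miR-200c-3p and miR-429-3p) and 1 of 2 names (miR-200a-3p and miR-141-3p). Neither of these seeds is that of miR-205-5p. The hairpin of 68 bases is shown next because both measured rows come from it, with the mature strands in capitals, the 5p strand at bases 7 to 28 and the 3p strand at bases 43 to 64:
Mir205: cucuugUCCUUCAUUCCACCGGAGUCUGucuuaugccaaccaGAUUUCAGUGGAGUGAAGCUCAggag

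Mir205 lies on the minus strand at chr1:193507463-193507530 (GRCm38.p6), with the 5p strand at chr1:193507503-193507524 and the 3p strand at chr1:193507467-193507488. In the GENCODE annotation of the same assembly the hairpin is inside exon 2 (chr1:193507238-193508899) of the long intergenic non-coding RNA 4631405K08Rik, on the same strand. RefSeq calls the host Mir205hg and places it at chr1:193506460-193510210. The miR-200 partners are on other chromosomes, with Mir200a, Mir200b and Mir429 on chromosome 4 and Mir200c and Mir141 on chromosome 6.

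The deposited values are reads divided by a factor for each library, and the column totals of the 14 libraries differed 17.68-fold. TMM over the miRNA rows would make them differ only 2.69-fold, so the deposited factors are not those of TMM over these rows, and how they were derived is not given in the sources used here. The comparisons of miR-205-5p are therefore given on 3 scales: the deposited values, the same values after median-of-ratios factors (called the relative scale), and the percent of a library's summed miRNA signal, whose tests are those with equal column totals. Other miRNAs are given on the deposited and relative scales, and with equal totals where that changes a call or a direction. In the 14 libraries, the recovered miRNA reads numbered from 56377 to 1060306. The stem cell labels of the day 0 groups were met by the markers. The summed miR-290 and miR-302 cluster markers were 22.3 ± 2.60% of the signal in D3 at day 0, 0.690 ± 0.00774% at day 7 and 1.38 ± 0.0791% at day 21 (SD, n = 3, 2 and 3), and 8.61 ± 2.40% in B8 at day 7 against 27.6 ± 1.58% at day 0 (SD, n = 3 each). Neural markers, led by miR-9-5p, took 1.38% in D3 at day 7 and 1.17% in B8 at day 7, against 0.0293% in D3 and 0.0302% in B8 at day 0. Mesenchymal markers, led by miR-143-3p, took 0.214%, 1.197% and 6.34% in D3 at days 0, 7 and 21. In B8 their share was lower at day 7, at 0.868% (0.4745 to 1.459%), than at day 0, at 1.734% (1.561 to 1.86%). In these mixed cultures, fewer cells of a type and less RNA per cell cannot be told apart.

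miR-205-5p was detected in every library, with 125 to 2470 reads, and was already present in undifferentiated cells of both lines. It stood between place 36 and place 98 of the 1033 miRNAs by level. In D3 it was lowest in the ESCs on the deposited scale and highest in the day 21 outgrowths on all 3 scales. In ESCs it was lower in D3 than in B8 on all 3 scales. The difference between D3 at days 7 and 0, and that between the lines at day 7, took opposite signs on different scales.

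In D3, the deposited values of miR-205-5p were 138.7, 123.4 and 104.1 at day 0, 404.9 and 502.4 at day 7, and 820.2, 687.6 and 825.9 at day 21. The 3 days did not overlap. The group means were 122.1 ± 17.3, 453.7 ± 69.0 and 777.9 ± 78.3 (SD, n = 3, 2 and 3). In B8, the deposited values were 440.6, 402.2 and 326.6 at day 7, against 585.5, 587.2 and 573.7 at day 0, with means of 389.8 ± 58.0 and 582.2 ± 7.33 (SD, n = 3 each). The B8 days did not overlap either, and the B8 ESCs had the tightest values of the 5 groups. By mean, the deposited order from high to low was D3 day 21, B8 day 0, D3 day 7, B8 day 7 and D3 day 0. Only D3 day 7 and B8 day 7 were neighbours with overlapping ranges.

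On the relative scale, the D3 values were 257.5, 201.7 and 254.0 at day 0, 159.8 and 199.2 at day 7, and 616.3, 456.2 and 470.4 at day 21. Day 7 was lowest, close below the lowest day 0 library, and day 21 stood clear of both. The B8 values were 434.3, 482.2 and 366.7 at day 7, against 525.7, 538.0 and 575.3 at day 0. The order by mean became B8 day 0 (546.3 ± 25.8), D3 day 21 (514.3 ± 88.6), B8 day 7 (427.7 ± 58.0), D3 day 0 (237.7 ± 31.3) and D3 day 7 (179.5 ± 27.9; SD, n = 3 except n = 2 for D3 day 7). The first 2 groups overlapped, as did D3 day 21 with B8 day 7, while each of the other neighbours was separate.

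As a share of the signal, miR-205-5p made up 0.206 ± 0.0256% of D3 at day 0, 0.0592 ± 0.0148% at day 7 and 0.353 ± 0.0863% at day 21 (SD, n = 3, 2 and 3). In B8 it made up 0.229 ± 0.0568% at day 7, against 0.420 ± 0.0525% at day 0 (SD, n = 3 each). miR-10a-5p and miR-10b-5p, a Hox-embedded pair, had a high share where that of miR-205-5p was low at day 7. Together they took 0.113 ± 0.0412% of the signal in D3 at day 0, 65.2 ± 2.65% at day 7 and 13.2 ± 1.38% at day 21. In B8 they took 43.8 ± 2.75% at day 7, against 0.628 ± 0.0438% at day 0. Totals were also made equal without this pair, a setting added after seeing the data. The log2 difference of miR-205-5p from day 0 to day 7 was then -0.29 in D3 and -0.07 in B8. Neither passed (limma adjusted p = 0.29 in D3 and 0.79 in B8). The rank of miR-205-5p, which no library factor can change, was 57, 60 and 59 in D3 at day 0, 98 and 84 at day 7, and 46, 50 and 49 at day 21. In B8 the rank was 45, 47 and 51 at day 7, against 39, 37 and 36 at day 0.

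**Figure D1:**
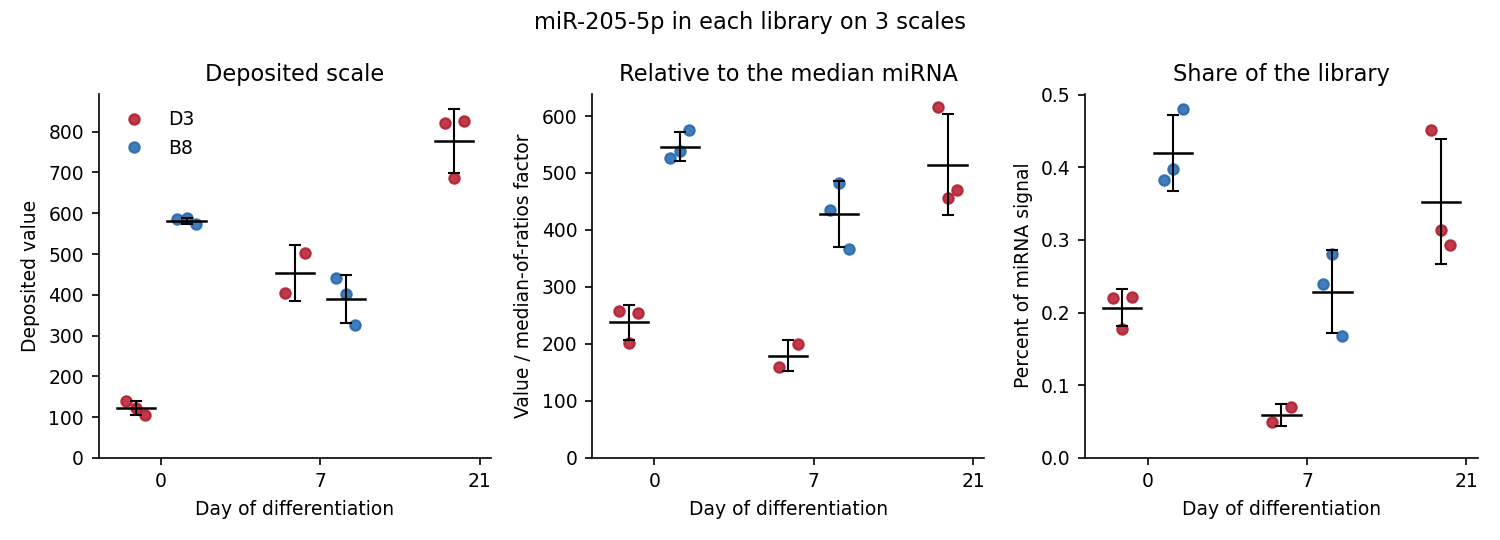
Levels of miR-205-5p in each library by day, with D3 left of B8, as deposited values, relative values and percent of the library's miRNA signal. Points are libraries and bars are group means ± SD (n = 3, or 2 for D3 at day 7); in D3 the day 7 libraries lie above the day 0 libraries on the deposited scale, at 404.9 and 502.4 against 104.1 to 138.7, and below them as percent of signal.

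The day 21 outgrowths of D3 held more miR-205-5p than the D3 ESCs on each scale. The deposited level was 6.37-fold higher (log2 2.67 ± 0.22 SE, limma adjusted p = 4.6e-11), and the relative level was 2.15-fold higher (log2 1.11 ± 0.17, limma adjusted p = 2.1e-05). With equal column totals the log2 difference was 0.75 (limma adjusted p = 0.0071), and edgeR on the recovered reads gave 1.12 (adjusted p = 8.1e-06). At the same threshold 75.4% of the 521 miRNAs tested passed on the deposited scale, with a median log2 change of 1.69, and 63.7% passed on the relative scale, with a median of 0.40. A call was therefore common in this comparison, and 168 of the other miRNAs had a larger log2 change than miR-205-5p. Markers of other cell types also had larger shares in D3 at day 21 than at day 0. The summed mesenchymal markers took 5.55 to 7.05% at day 21 against 0.194 to 0.252% at day 0 (9 of 9 kept members called higher on both scales, 3 of 9 entries at 0 at day 0). Endodermal markers took 0.254 to 0.308% against 0.0791 to 0.121% (4 of 5 kept members higher deposited and 3 relative, 1 of 6 entries at 0 at day 0). Muscle markers took 0.122 to 0.339% against 0.00 to 0.00165% (3 of 3 kept members higher on both scales, 3 of 5 entries at 0 at day 0). The part of these markers in the level of miR-205-5p was not tested.

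Between day 7 and day 21 in D3, miR-205-5p rose while the typical miRNA had a lower deposited value. It was 1.72-fold higher at day 21 on the deposited scale (log2 0.78 ± 0.24 SE, limma adjusted p = 0.012) and 2.85-fold higher on the relative scale (log2 1.51 ± 0.19, limma adjusted p = 1.3e-05). Equal totals gave 2.57 (limma adjusted p = 5e-07) and edgeR gave 1.72 (adjusted p = 1.5e-07). The median of all 521 miRNAs was -0.60 on the deposited scale, where 39.5% passed, and 0.01 on the relative scale, where 27.3% passed. Only 63 of the other 520 miRNAs had a larger log2 change, and 457 had a smaller one. Without replicate 2 of D3 at day 7, which leaves a single day 7 library assumed to vary like the other groups, the deposited difference was 0.63 and did not pass (limma adjusted p = 0.16). The relative difference was then 1.35 (limma adjusted p = 0.0011).

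Between day 0 and day 7 in D3, the direction of miR-205-5p depended on the scale. The deposited level was 3.71-fold higher at day 7 (log2 1.89 ± 0.24 SE, limma adjusted p = 1.4e-07), but the median miRNA moved by 2.25 and 77.4% passed. On the relative scale, where 63.1% passed and the median was 0.26, the log2 difference was -0.40 ± 0.19 (limma adjusted p = 0.077). It was -1.81 with equal column totals (limma adjusted p = 7.8e-06) and -0.60 by edgeR on reads (adjusted p = 0.018). Without replicate 2 of D3 at day 0 the relative difference was -0.52 and passed (limma adjusted p = 0.039). Of the other miRNAs, 296 had a larger log2 change in this comparison and 224 a smaller one.

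In B8, miR-205-5p had lower values in the day 7 embryoid bodies than in the ESCs on every scale, with a size that only some tests called. The deposited level was 0.665 times that of day 0 (log2 -0.59 ± 0.22 SE, limma adjusted p = 0.025, 95% interval -1.03 to -0.15). The relative level was 0.779 times that of day 0 (log2 -0.36 ± 0.17, limma adjusted p = 0.087), edgeR gave -0.36 (adjusted p = 0.11) and equal column totals gave -0.90 (limma adjusted p = 0.0028). Of all 521 miRNAs, 49.9% passed on the deposited scale with a median of -0.21, and 52.6% passed on the relative scale with a median of -0.04. The deposited call was lost without B8 day 0 replicate 1, 2 or 3 (log2 -0.58, -0.58 and -0.60, limma adjusted p = 0.066, 0.063 and 0.052) and without B8 day 7 replicate 3 (log2 -0.47, limma adjusted p = 0.089). A relative call appeared without B8 day 7 replicate 2 (log2 -0.45, limma adjusted p = 0.042).

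In undifferentiated cells, D3 held less miR-205-5p than B8 under every scaling and every limma, edgeR and DESeq2 setting that was run. Its ratio to the miR-200 family, given below, was 0.831 times that of B8 with overlap (exact permutation p = 0.3). The deposited level in D3 was 0.209 times that in B8 (log2 -2.26 ± 0.22 SE, limma adjusted p = 4.4e-09), and the relative level was 0.433 times (log2 -1.21 ± 0.17, limma adjusted p = 3.4e-05). With equal totals the difference was -1.02 (limma adjusted p = 0.0025), and by edgeR it was -1.28 (adjusted p = 6.2e-06). On the deposited scale 47.0% of the miRNAs passed and the median was -0.90, and on the relative scale 23.8% passed and the median was -0.10. Of the other miRNAs, 52 had a more negative difference than miR-205-5p and 468 a higher one.

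At day 7 the deposited levels of miR-205-5p in D3 and B8 overlapped, and on the other scales D3 was lower. The deposited difference was 0.22 ± 0.24 SE in log2 (limma adjusted p = 0.41), with a 95% interval of -0.28 to 0.72. The relative level in D3 was 0.42 times that in B8 (log2 -1.25 ± 0.19, limma adjusted p = 5e-05). Equal totals gave -1.94 (limma adjusted p = 1.1e-05) and edgeR gave -1.52 (adjusted p = 1.5e-06). On the deposited scale 75.2% passed, with a median of 1.71, and on the relative scale 41.8% passed, with a median of 0.36.

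Whether the change between day 0 and day 7 differed between the lines was tested as an interaction, D3 minus B8. On the deposited scale it was 2.48 ± 0.32 SE for miR-205-5p (limma adjusted p = 3.4e-07), close to the median of 2.64 over all 521 miRNAs, of which 74.3% passed. On the relative scale it was -0.04 ± 0.26 (limma adjusted p = 0.92, 95% interval -0.58 to 0.50), where 33.2% passed with a median of 0.47. With equal totals it was -0.91 (limma adjusted p = 0.048) and by edgeR -0.24 (adjusted p = 0.58). The comparisons that use D3 or B8 at day 0 share those libraries, so their values are not independent of each other.

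**Figure D2:**
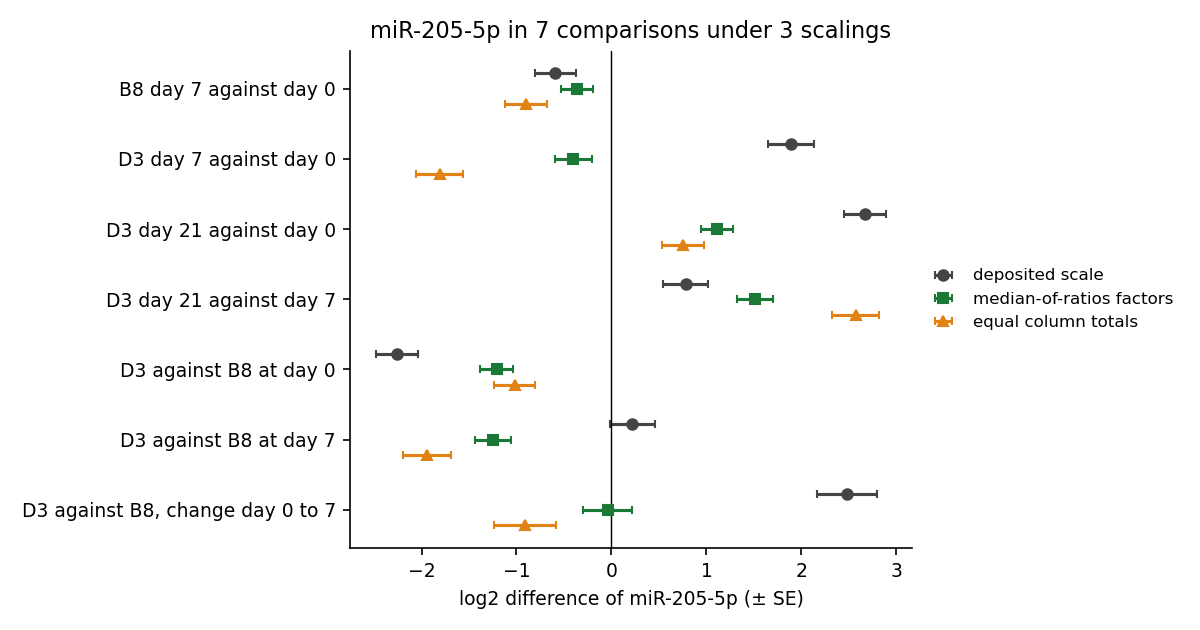
Log2 difference of miR-205-5p in the 7 comparisons on the deposited scale, after median-of-ratios factors and with equal column totals; points are limma estimates and bars are ± SE. D3 day 21 against day 0 (2.67, 1.11 and 0.75), D3 day 21 against day 7 (0.78, 1.51 and 2.57) and D3 against B8 at day 0 (-2.26, -1.21 and -1.02) keep their side of 0, and D3 day 7 against day 0 (1.89, -0.40 and -1.81) changes side.

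The 3p strand was the minor product of the hairpin in every library. It had 9, 4 and 2 reads in D3 at day 0, 11 and 9 at day 7, and 31, 52 and 41 at day 21. In B8 it had 7, 10 and 3 reads at day 7, against 13, 7 and 10 at day 0. The 5p strand was thus 29.78 to 143.3 times as abundant within a library. As a share of miR-205 reads, the 3p strand made up 2.18 ± 0.928% in D3 at day 0, 1.68 ± 0.578% at day 7 and 1.79 ± 0.489% at day 21, and 1.28 ± 0.0778% in B8 at day 7 against 1.13 ± 0.403% at day 0 (SD, n = 3 except n = 2 for D3 day 7). The ranges of 3p share overlapped among the 3 days of D3 and between the 2 days of B8. At so few reads the share in 1 library is loose: in D3 at day 0 replicate 3 it was 1.57%, with a 95% Wilson interval of 0.433 to 5.56% for counting error only, since copies made by PCR are not independent molecules.

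The tests of miR-205-3p had the signs of those of miR-205-5p in each of the 7 comparisons on each of the deposited and relative scales. Its deposited level was higher in D3 at day 21 than at day 0 (log2 2.21 ± 0.43 SE, limma adjusted p = 5.7e-05), while the relative difference of 0.79 (limma adjusted p = 0.096) and that of 0.48 with equal totals (limma adjusted p = 0.36) did not pass. From day 7 to day 21 in D3 the relative difference was 1.47 ± 0.45 (limma adjusted p = 0.02), against a deposited one of 0.84 (limma adjusted p = 0.17) and one of 2.44 with equal totals (limma adjusted p = 0.00071). D3 against B8 at day 0 gave -1.16 ± 0.43 deposited (limma adjusted p = 0.027), -0.23 relative (limma adjusted p = 0.73) and -0.07 with equal totals (limma adjusted p = 0.93). Leaving out B8 day 0 replicate 1 or 3, or D3 day 0 replicate 2 or 3, ended that deposited call (log2 -1.07, -0.95, -1.05 and -0.90, limma adjusted p = 0.086, 0.11, 0.082 and 0.13). D3 day 7 against day 0 was 1.37 ± 0.48 deposited (limma adjusted p = 0.012) and -0.68 relative (limma adjusted p = 0.2). With equal totals it was -1.97, a call in the opposite direction (limma adjusted p = 0.0022). Without D3 day 7 replicate 2 the deposited value was 1.17 and did not pass (limma adjusted p = 0.093). At day 7, D3 against B8 was 0.53 deposited (limma adjusted p = 0.32), -0.81 relative (limma adjusted p = 0.17) and -1.42 with equal totals, which passed (limma adjusted p = 0.035). B8 day 7 against day 0 was -0.32 deposited (limma adjusted p = 0.55) and -0.11 relative (limma adjusted p = 0.84).

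A ratio of 2 miRNAs of 1 library does not depend on that library's factor, so miR-205-5p was set against the sum of the 3p strands of miR-200a, miR-200b, miR-200c, miR-141 and miR-429. The ratio was 1.28, 0.827 and 1.14 in D3 at day 0, 1.73 and 1.80 at day 7, and 3.82, 2.21 and 2.01 at day 21. No 2 of these days overlapped, and the value was higher at each later day. In B8 the ratio was 1.43, 1.44 and 1.27 at day 7, against 1.24, 1.203 and 1.41 at day 0, and the days overlapped. The family sum itself ran from 91.6 to 149.3 deposited units in D3 at day 0, from 234.2 to 279.1 at day 7 and from 214.9 to 410.0 at day 21. As a share of the signal, both strands of the family together instead took 0.2132%, 0.03616% and 0.1428% in D3 at days 0, 7 and 21. The shares of miR-205-5p were 0.2064%, 0.05919% and 0.3525%. By share, both were thus lower at day 7 than at day 0, the family more so.

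The D3 ratio was 2.41-fold higher at day 21 than at day 0 (log2 difference 1.27, 2-sided exact permutation p = 0.1, the smallest that 3 against 3 can give). It was 1.66-fold higher at day 7 than at day 0 and 1.46-fold higher at day 21 than at day 7, each with an exact permutation p of 0.2, the smallest that 2 against 3 can give. No comparison of this ratio could therefore reach 0.05. In B8 the day 7 ratio was 1.07 times that of day 0 (exact permutation p = 0.2). D3 stood at 0.831 times B8 at day 0 with overlap (exact permutation p = 0.3) and at 1.28 times B8 at day 7 without overlap (exact permutation p = 0.2).

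**Figure D3:**
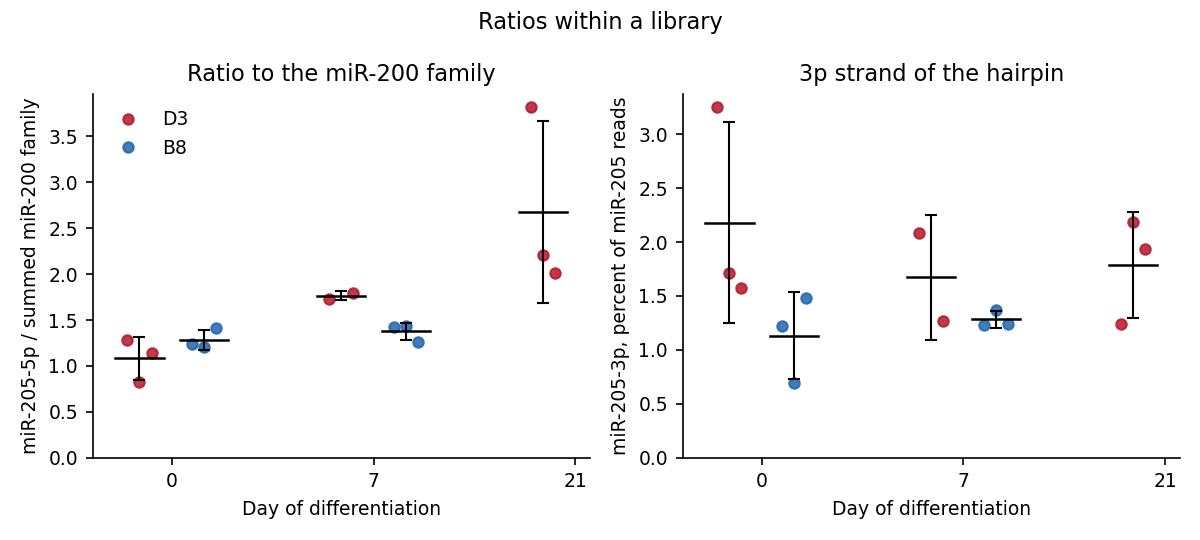
Left, the ratio of miR-205-5p to the summed miR-200 family 3p strands in each library; right, the percent of miR-205 reads from the 3p strand. Points are libraries by day, D3 left of B8, with group means ± SD; the D3 ratio averaged 1.08, 1.77 and 2.68 at days 0, 7 and 21, and the B8 ratio averaged 1.38 at day 7 against 1.28 at day 0.

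Calls among the epithelial miRNAs around miR-205 went in both directions in some comparisons and in 1 direction in others. The list held both strands of the miR-200 family (8 of 9 rows kept) and of miR-203, miR-31 and miR-184 (3 of 5 rows kept), and its members were chosen with earlier results of these data known. In D3 at day 21 against day 0, 7 of the 11 kept members were higher and 0 lower on the deposited scale, where the list median was 0.85 and the median of all miRNAs 1.69. Of all 521 miRNAs, 340 were higher and 53 lower there (75.4%), so the list was below the general share. With relative values 1 was higher (miR-203-3p) and 4 were lower (miR-141-3p, miR-141-5p, miR-200a-3p and miR-31-5p). The list median was -0.64 against 0.40 for all, of which 63.7% passed. The deposited count was 3 without D3 day 21 replicate 3, against 361 of all 521. In D3 at day 7 against day 0, 6 were higher and 1 lower deposited (median 0.84), against 367 higher and 36 lower of all 521 (77.4%), and 1 higher and 7 lower relative (median -1.19), against 63.1% of all passing, 188 of them higher. In D3 at day 21 against day 7, 0 passed on the deposited scale (limma), against 42 higher and 164 lower of all 521 (39.5%). At an unadjusted p under 0.05 limma also called 0, while edgeR called 7 higher and DESeq2 6 higher on the recovered reads. Of all 521, edgeR called 140 higher and 74 lower, and DESeq2 116 higher and 87 lower. On the relative scale 4 were higher and 0 lower (median 0.87), against 86 higher and 56 lower of all (27.3%, median 0.01). With equal totals 8 were called, against 198 higher and 11 lower of all, so higher calls were general there.

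In B8 at day 7 against day 0, 2 members of the list were higher and 4 lower on both scales, with medians of -0.95 deposited and -0.75 relative. Of all 521 miRNAs, 114 were higher and 146 lower deposited (49.9%), and 140 higher and 134 lower relative (52.6%). In D3 against B8 at day 0, 0 were higher, and 7 were lower deposited and 5 relative, with 4 called under equal totals. Of all 521, 5 were higher and 240 lower deposited (47.0%), and 41 higher and 83 lower relative (23.8%). With equal totals 48 of all were higher and 65 lower. The list's share was above the general one on both scales here, and the lack of higher calls was general on the deposited scale. At day 7, 2 were higher and 1 lower deposited, against 344 and 48 of all (75.2%), and 0 higher and 7 lower relative, against 131 and 87 of all (41.8%). In the interaction, 7 were higher deposited, against 374 higher and 13 lower of all (74.3%), and 3 lower relative, against 108 higher and 65 lower of all (33.2%). These counts are a description of the list and no test of it.

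Of the partners, miR-203-3p had higher values after differentiation in both lines. Its deposited level was 102.9 ± 59.2 in D3 at day 21 against 4.62 ± 2.71 at day 0 (SD, n = 3 each). The D3 day 0 libraries held only 2 to 13 reads of it. The log2 difference was 4.38 ± 0.45 SE deposited (limma adjusted p = 4.9e-09) and 2.92 ± 0.44 relative (limma adjusted p = 1.5e-05), larger than that of miR-205-5p on each scale. In D3 at day 7 against day 0 it was 3.63 ± 0.51 deposited (limma adjusted p = 6e-07) and 1.45 relative (limma adjusted p = 0.016), and it did not pass with equal column totals (0.10, limma adjusted p = 0.88). In B8 at day 7 its level was 20.8 ± 12.6 against 7.25 ± 1.86 at day 0 (SD, n = 3 each). That difference was 1.34 ± 0.45 deposited (limma adjusted p = 0.016) and 1.56 relative (limma adjusted p = 0.0062). It did not pass with equal totals (1.06, limma adjusted p = 0.064) or with no filter on low values (1.34, limma adjusted p = 0.066), and the deposited call ended without B8 day 0 replicate 3 (1.13, limma adjusted p = 0.069) or B8 day 7 replicate 2 (0.89, limma adjusted p = 0.13). In B8 the deposited values of miR-203-3p and miR-205-5p thus differed in opposite directions, while both were higher in D3 at day 21 than at day 0.

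Within the miR-200 family, 3 members fell in B8. miR-141-3p had 31.7 ± 5.92 in B8 at day 7 against 118.1 ± 19.3 at day 0 (SD, n = 3 each; log2 -1.89, limma adjusted p = 2.5e-05). miR-200a-3p fell by 1.57 on the log2 scale (limma adjusted p = 0.00013) and miR-200b-3p by 1.64 (limma adjusted p = 0.00082), with miR-200b-3p at 6.41 ± 2.01 against 20.4 ± 1.68. All 3 also passed on the relative scale, at -1.66, -1.34 and -1.43. miR-429-3p, from the same cluster on chromosome 4 as miR-200a and miR-200b, did not pass on those scales. It had 189.6 ± 13.7 at day 7 against 212.7 ± 23.9 at day 0 (log2 -0.16, limma adjusted p = 0.61, and 0.07 relative, limma adjusted p = 0.77), but with equal totals it passed as lower (-0.47, limma adjusted p = 0.042). miR-200c-3p had 24.8 ± 3.79 at day 7 against 17.5 ± 5.50 at day 0. miR-429-3p was the most abundant member of the family in every group. The family sum was 282.1 ± 25.1 at day 7 against 455.9 ± 43.1 at day 0, lower at day 7 as miR-205-5p was.

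Among the surface ectoderm partners, miR-31-5p fell in B8, to 41.9 ± 6.40 at day 7 against 251.9 ± 14.8 at day 0 (SD, n = 3 each). The log2 difference was -2.58 (limma adjusted p = 3.1e-08), and -2.36 relative. In D3 its day 7 against day 0 difference was 0.84 deposited (limma adjusted p = 0.018) and -1.44 relative (limma adjusted p = 0.00019). For day 21 against day 0 the D3 difference was 0.84 deposited (limma adjusted p = 0.0096) and -0.72 relative (limma adjusted p = 0.017). In ESCs it was lower in D3 than in B8, as miR-205-5p was (log2 -2.48, limma adjusted p = 8.5e-08, and -1.43 relative). miR-200b-3p was likewise lower in D3 ESCs (log2 -2.84, limma adjusted p = 1.5e-06, and -1.92 relative), where it had only 2 to 6 reads a library. In D3, the deposited level of miR-429-3p averaged 63.8 ± 13.8 at day 0, 179.3 ± 28.8 at day 7 and 209.9 ± 65.4 at day 21 (SD, n = 3, 2 and 3). Its day 7 against day 0 difference was 1.5 in log2 deposited (limma adjusted p = 4e-05). Calls in the opposite direction came from relative values (-0.79, limma adjusted p = 0.0015) and equal totals (-2.20, limma adjusted p = 1e-07). Another came from edgeR (-0.99, adjusted p = 0.00042). Its day 21 against day 0 difference was 1.69 deposited (limma adjusted p = 1.8e-06) and 0.13 relative (limma adjusted p = 0.54), against 2.67 and 1.11 for miR-205-5p. With equal totals it was -0.23 (limma adjusted p = 0.3), against 0.75 for miR-205-5p. miR-184-3p, the other member counted as higher in B8 at day 7, had 0 to 10 reads a library.

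**Figure D4:**
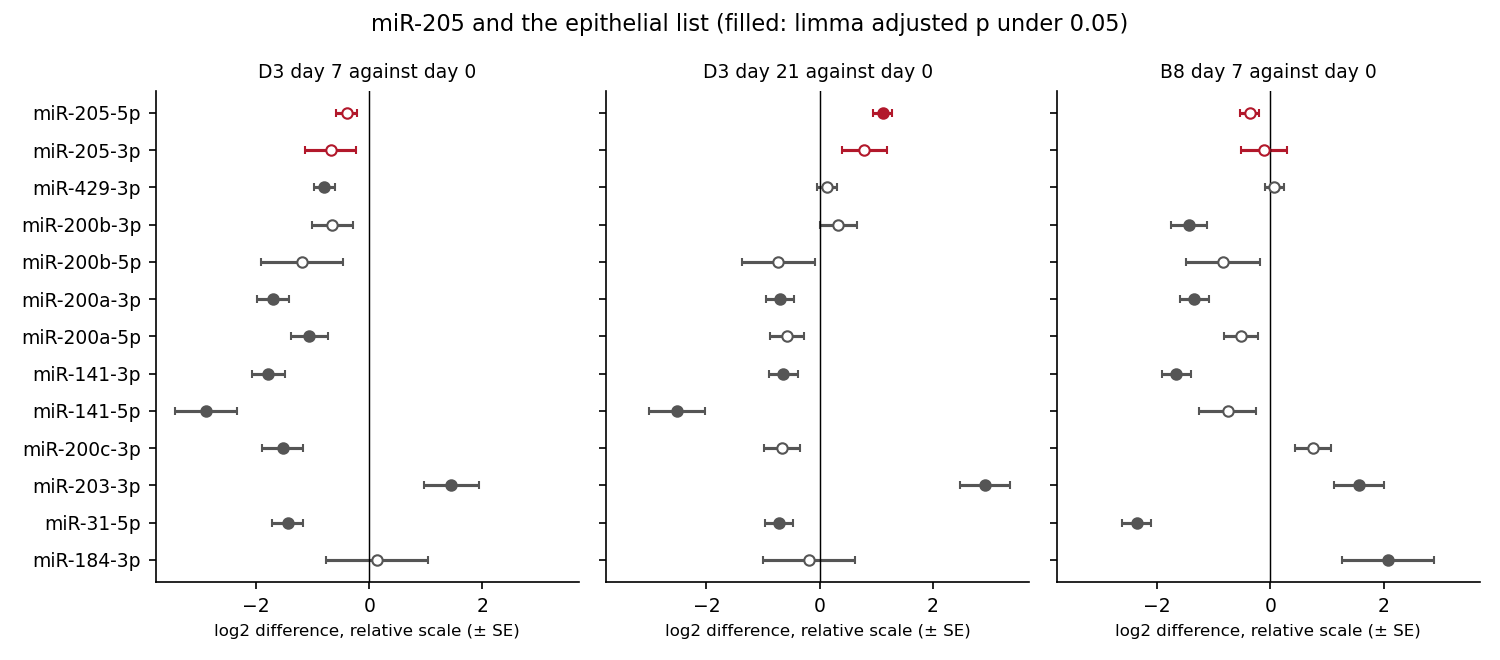
Relative-scale log2 difference ± SE of the miR-205 strands and of the 11 kept members of the epithelial list, for D3 day 7 against day 0, D3 day 21 against day 0 and B8 day 7 against day 0. Filled points passed limma's adjusted p under 0.05. At D3 day 21 miR-205-5p (1.11) and miR-203-3p (2.92) pass as higher. miR-31-5p (-0.72), miR-200a-3p (-0.70), miR-141-3p (-0.64) and miR-141-5p (-2.52) pass as lower there. In B8 miR-31-5p is at -2.36.

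Over the 14 libraries, the miRNAs whose pattern was most like that of miR-205-5p were found by Pearson correlation of the relative log2 values, among 520 correlations. miR-200b-3p was nearest at 0.76, then miR-429-3p at 0.75, miR-142a-5p at 0.70, miR-29a-3p at 0.70 and miR-196a-5p at 0.67. The 3p strand of miR-205 itself was in place 6 at 0.65. The most unlike were miR-181c-3p at -0.80, miR-370-3p at -0.79 and miR-667-5p at -0.75. On the deposited scale the 5 nearest were instead let-7d-5p (0.94), let-7i-5p (0.93), miR-98-5p (0.93), miR-34b-3p (0.92) and miR-199a-5p (0.92), and 0 of 5 were shared by both scales. Libraries of a group share their line and day, and all miRNAs of a library share its factor, so these correlations are a description.

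Of the nearest, miR-29a-3p and miR-142a-5p had low levels in D3 ESCs and high ones in B8 ESCs. On the deposited scale miR-29a-3p had 9.03 ± 0.364 in D3 at day 0, 22.6 ± 5.67 at day 7 and 100.4 ± 37.8 at day 21. In B8 it had 9.50 ± 1.10 at day 7 against 118.0 ± 12.2 at day 0. Its relative means were 17.91, 8.945 and 64.16 in D3 at days 0, 7 and 21. In B8 they were 10.45 at day 7 against 110.3 at day 0. Day 7 against day 0 in D3 was thus 1.26 in log2 deposited (limma adjusted p = 0.0015). It was -0.96 relative (limma adjusted p = 0.0061) and -2.33 with equal totals (limma adjusted p = 2.3e-06). miR-142a-5p, a miRNA of blood cells, had deposited values of 9.21 ± 2.33, 2.28 ± 1.203 and 21.3 ± 2.07 in D3 at days 0, 7 and 21. In B8 it had 20.1 ± 3.02 at day 7 against 353.4 ± 67.0 at day 0. Its relative means were 17.68, 0.9021 and 14.05 in D3 at days 0, 7 and 21. In B8 they were 22.25 at day 7 against 329.3 at day 0. The summed blood markers, of which 2 of 4 entries were at 0 in B8 at day 0, took 0.275 ± 0.0167% of the signal there (0.256 to 0.287%), against group means of 0.000335 to 0.0176% elsewhere. Mesenchymal markers took 0.214 ± 0.0327% in D3 ESCs (0.194 to 0.252%, with 3 of 9 entries at 0), against 1.73 ± 0.155% in B8 ESCs (1.56 to 1.86%, with 0 of 9 at 0). The blood and mesenchymal markers were thus lower in D3 ESCs than in B8 ESCs, as miR-205-5p was. So were the miR-290 and miR-302 cluster markers (20.01 to 25.13% against 25.81 to 28.86%). Endodermal markers were instead higher in D3 ESCs (0.07906 to 0.1212% against 0.07175 to 0.07298%). Neural and muscle markers overlapped between the lines. The part of any of these markers in that difference of miR-205-5p was not tested.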

How the data were processed

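Small RNA libraries of D3 and B8 cells were analysed from 1 deposited table of 1033 mature miRNAs. Per the file headers its values are TMM-normalized signal, deposited by the authors, which are reads divided by a factor for each library; these factors are not those that TMM gives over the miRNA rows (column totals 17.68-fold apart as deposited, 2.69-fold under TMM). Below 1000 reads, 100% of the values in each library came out as whole reads (tolerance 0.01) once divided by the value of 1 read, so reads could be recovered. Per the submitters' processing notes, CASAVA, FastQC, Bowtie, Partek and mm10 were used, with no version or setting named; cutadapt and a length step appear in the headers. The rule for reads that match several miRNAs is not given in the sources used here. A column of row totals (1) belongs to no sample and was not used.

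A miRNA was kept if it averaged 5 or more per 1000000 of the column total (521 were), and 0.48 was added before taking log2, which understates changes of low miRNAs. limma 3.58.1 (R 4.3.3, trended prior, 9 residual degrees of freedom) fitted 5 group means over 7 comparisons, and p-values were adjusted by Benjamini-Hochberg over all 521 with a threshold of 0.05. The relative scale took its median-of-ratios factors from the 319 miRNAs with no value of 0. edgeR 4.0.16 and DESeq2 1.42.0 were run on the recovered reads. Ratios were compared by 2-sided exact permutation tests over samples. Fits were tested on simulated data. Other pseudocounts, filters, scalings, single libraries left out and a replicate block were tried. Named miRNAs were those of miR-205 and of the epithelial list, the most abundant of each marker list, and the 5 most and 3 least alike. Members, lists and tests were chosen with earlier results of these data known. Sequences and loci are from RefSeq and GENCODE for GRCm38, matched by name (9 of 9).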

Additional observations from a re-analysis of the deposited data

Results flagged for a closer look

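The change of miR-205-5p between day 0 and day 7 differed between D3 and B8 by a test of the difference itself, an interaction of 2.48 in log2 on the deposited scale (limma adjusted p = 3.4e-07). The median of all 521 miRNAs was 2.64 and 74.3% of them passed, so miR-205-5p was slightly below the typical miRNA. The deposited level was higher at day 7 than at day 0 in D3 (1.89) and lower in B8 (-0.59). With relative values the interaction was -0.04 (limma adjusted p = 0.92), and no such difference was called, while with equal totals it was -0.91, a call in the opposite direction (limma adjusted p = 0.048). miR-205-3p had the same kind of difference, 1.68 on the deposited scale (limma adjusted p = 0.021), and a relative value of -0.57 (limma adjusted p = 0.5). It did not pass without B8 day 0 replicate 3 (1.48), D3 day 0 replicate 3 (1.43) or D3 day 7 replicate 2 (1.49), with limma adjusted p of 0.052, 0.051 and 0.085.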

How the results depend on the processing

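For miR-205-5p, D3 day 21 against day 0 (0.75 to 2.77) and D3 against B8 at day 0 (-2.36 to -1.02) kept their direction and their call under all 17 alternatives run for each. D3 day 7 against day 0 turned to -0.40 with median-of-ratios factors, -1.81 with equal column totals, -0.29 with totals made equal leaving out the miR-10 pair (chosen after seeing the data), -0.60 by edgeR and -0.40 by DESeq2. In that order, D3 against B8 at day 7 turned to -1.25, -1.94, -1.25, -1.52 and -1.26, and the interaction to -0.04, -0.91, -0.21, -0.24 and -0.05. B8 day 7 against day 0 lost its call at -0.36 (median of ratios), -0.07 (outside miR-10), -0.36 (edgeR) and -0.35 (DESeq2), and leaving out libraries gave -0.68 to -0.47. D3 day 21 against day 7 ran from 0.63 to 0.94 with libraries left out. For miR-205-3p, median of ratios, equal totals, edgeR and DESeq2 turned D3 day 7 against day 0 to -0.68, -1.97 (a call), -1.12 and -0.91, D3 against B8 at day 7 to -0.81, -1.42, -1.21 and -0.96, and the interaction to -0.57, -1.35, -1.05 and -0.84. miR-429-3p turned to -0.23 at D3 day 21 with equal totals. At D3 day 7 it turned to -0.79 (median of ratios), -2.20 (equal totals) and -0.99 (edgeR), each a call, and to -0.78 by DESeq2. In B8 it turned to 0.07, 0.05 and 0.07 under median of ratios, edgeR and DESeq2, and there equal totals made it a call (-0.47).

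Calls in the epithelial list changed as follows. D3 day 21 against day 0 had 7, and 3 to 8 with libraries left out. D3 day 21 against day 7 had 0, then 1 with no filter, 4 relative, 8 with equal totals and 0 to 1 with libraries left out. D3 against B8 at day 0 had 7, then 4 with equal totals. D3 against B8 at day 7 had 3, then 7 relative and 8 with equal totals, and the interaction had 7, then 3 relative. The ratio to miR-200b-3p alone turned D3 against B8 at day 0 to 0.58. None of the 5 nearest miRNAs by likeness was shared on the deposited scale (0). Of all miRNAs, 245 (47.0%) were called in D3 against B8 at day 0, then 23.8% relative and 113 with equal totals. D3 against B8 at day 7 had 392, then 218 and 163, and the interaction had 387, then 173 and 159. The cause of these changes was not tested.

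The deviations of same-numbered samples from their group means correlated at -0.09 to 0.14. With so few libraries in a group, these values cannot decide whether the replicate numbers pair the samples. With the replicate block, miR-205-5p was at -0.59 in B8, 1.95 (day 7 against day 0), 2.67 (day 21 against day 0) and 0.72 (day 21 against day 7) in D3, -2.26 and 0.28 between lines at days 0 and 7, and 2.54 in the interaction, and none of its calls changed. Depth limits miR-205-3p, with 2 to 52 reads a library. It also limits miR-200b-3p and miR-203-3p in D3 at day 0, with 2 to 6 and 2 to 13 reads a library.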
